A study of Saccharomyces cerevisiae with 15 samples.

Results

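The 45 genes described here encode enzymes of amino acid biosynthesis in the yeast Saccharomyces cerevisiae, with the sulfur amino acids left out. They were chosen by gene name, among them the HOM, THR, ILV, LEU, BAT, ARO, TRP, ARG, LYS, HIS and SER rows and GDH1, GLN1 and GLT1, and all 45 were found among the 5703 genes analysed. They fall into pathways for threonine (5 genes), branched-chain amino acids (8), aromatic amino acids (8), arginine (6), lysine (7), histidine (4), serine (4) and nitrogen assimilation (3). The cells were of the wild-type strain YWG25, in the Sigma1278b background, grown at 30 °C in YPD to an optical density of about 0.7. The libraries without glucose (-GLU) comprised 3 of ribosome footprints and 3 of RNA, and the libraries with glucose (+GLU) likewise 3 and 3, all from cells given 100 µg/ml cycloheximide, which stops translation elongation. Another 3 footprint libraries, 1 each, were titled as free of cycloheximide: -GLU with a fast harvest, -GLU titled without those words, and +GLU with a fast harvest. The study asked how translation adapts when glucose is removed, and protein kinase A stands in its title. The time that cells spent without glucose is not stated in the labels.

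Yeast makes every amino acid from intermediates of sugar metabolism and ammonium. Most pathways have an entry enzyme that is inhibited by its end product, such as the aspartate kinase Hom3 by threonine. Many of the genes are activated by Gcn4, the transcription factor of general amino acid control, whose own mRNA is translated more when the kinase Gcn2 senses uncharged tRNA. Some branched-chain genes and GDH1 are also bound by Leu3, which needs the leucine precursor made by Leu4 to activate. The ribosome footprint is the piece of mRNA that a ribosome shields from nuclease, so footprints per gene follow the ribosomes on its mRNA, and footprints relative to RNA are called translational efficiency here.

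The upstream DNA of these genes carried 2 sequence features that the choice by name did not use. The letters TGACTCA, read on both strands and bound by Gcn4, stood within 500 nt upstream of the start codon in 25 of 45 genes (55.6%), against 4.15% of all 5692 genes with such a window, these 45 included. They were found in 6 of 6 arginine, 4 of 4 histidine, 6 of 8 branched-chain, 3 of 5 threonine, 4 of 8 aromatic and 2 of 7 lysine genes, and in 0 of 4 serine and 0 of 3 nitrogen assimilation genes. The letters CCGG, then any 2 bases, then CCGG again, bound by Leu3, stood upstream of 5 genes (11.1%), against 0.264% of all genes. A match of letters is a description of this DNA, and its part in the changes below was not tested. Sequences and coordinates come from RefSeq R64, which is of strain S288C, not Sigma1278b, and for the authors' own alignment no build is named. The first group below shows 7 Gcn4-type sites, from genes whose changes are followed below, 5′ to 3′ in the direction of the gene, with the motif or its reverse complement in capitals.
HOM3, chrV:258227-258249, minus strand: caggcccaTGACTCAccttttct
THR4, chrIII:216274-216296, plus strand: agaaacgcTGACTCActacttat
ILV6, chrIII:105684-105706, minus strand: cgttatcgTGACTCActttcttt
LEU4, chrXIV:426841-426863, minus strand: cgtgtaagTGACTCAgttctttc
ARO4, chrII:718292-718314, minus strand: ctgcgaaaTGACTCAacgatgaa
ARG3, chrX:268477-268499, plus strand: tcacgtcgTGACTCAtatgcttt
HIS1, chrV:265955-265977, minus strand: cttccaagTGAGTCAcctctacc

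All 5 Leu3-type sites follow, with the motif in capitals. Each reads as the motif on both strands.
ILV2, chrXIII:483608-483633, plus strand: ggagcctgCCGGTACCGGcttggctt
ILV5, chrXII:839613-839638, minus strand: ggtctcctCCGGTACCGGttctgcca
LEU1, chrVII:478852-478877, minus strand: cgaaaattCCGGGACCGGcgaaattt
BAT1, chrVIII:517377-517402, plus strand: tgtgtttgCCGGTACCGGcctttaag
GDH1, chrXV:1043429-1043454, minus strand: ccaatgcgCCGGAACCGGcccatgca

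Library depth lay between 1610986 and 30575562 counts, and the lowest count of any of the 45 genes in a library was 19, so none was near the limit of detection. Glucose state was checked with 4 genes of gluconeogenesis and the glyoxylate cycle, FBP1, PCK1, ICL1 and MLS1. All were at most 18.7 CPM (counts per 1e6 counts) in +GLU libraries and at least 126.5 CPM in -GLU libraries. Both -GLU libraries numbered 3 stood apart: FBP1 reached 253.4 CPM in that footprint library and 126.5 CPM in that RNA library, against at least 2612 CPM in the others. Without the library numbered 3, RNA of 37 of the 45 genes was called lower and footprints of 41, against 34 and 40 with all libraries, by the tests given below. RNA was selected on cellulose in all -GLU libraries and in +GLU replicate 1, and on DynaBeads in +GLU replicates 2 and 3, so the selection moved with glucose in RNA but not in footprints. Removal of rRNA is mentioned for +GLU RNA replicates 1 and 2, but not for +GLU replicate 3 or any -GLU RNA library. It thus also moved in part with glucose. A fit of cellulose-selected RNA only still holds that difference, and the part of either step was not tested. Whether the replicates were independent cultures is left unsaid in the labels, and p-values therefore reflect the spread between these libraries, which may be technical.

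The 45 genes took a smaller share of the library without glucose. They held 1.29%, 1.33% and 1.40% of counts in the -GLU footprint libraries, against 3.21%, 4.45% and 4.41% in +GLU. In RNA they held 1.33%, 1.54% and 1.69% in -GLU, against 2.60%, 2.81% and 3.09% in +GLU. The groups did not overlap in either assay. Since counts are relative to each library, a change in all RNA or all ribosomes per cell cannot be told apart from no such change. Changes are given as log2 of -GLU over +GLU with an approximate standard error (SE), and a gene is called where its Benjamini-Hochberg adjusted p from edgeR's quasi-likelihood test over all genes is under 0.05. RNA of 34 of the 45 genes fell and RNA of 2 rose, where 30.2% of all 5519 genes tested fell and 30.4% rose. Footprints of 40 genes fell and those of 1 rose, where 31% of 5319 genes fell and 33.8% rose. The median log2 change of the 45 genes was -1.35 in RNA and -2.40 in footprints, beside 0.01 and 0.10 over all genes tested. Where only cellulose-selected RNA entered the fit, with 1 +GLU library, RNA of 20 of the 45 genes fell, RNA of 1 rose, and the median was -0.99. The RNA calls lost there included those of THR1, ILV2, ILV5, LEU1, LEU4, TRP2, TRP3, TRP5, ARG1, HIS4, HIS5, SER3, GDH1 and GLT1 (adjusted p = 0.0597 to 0.146).

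**Figure D1:**
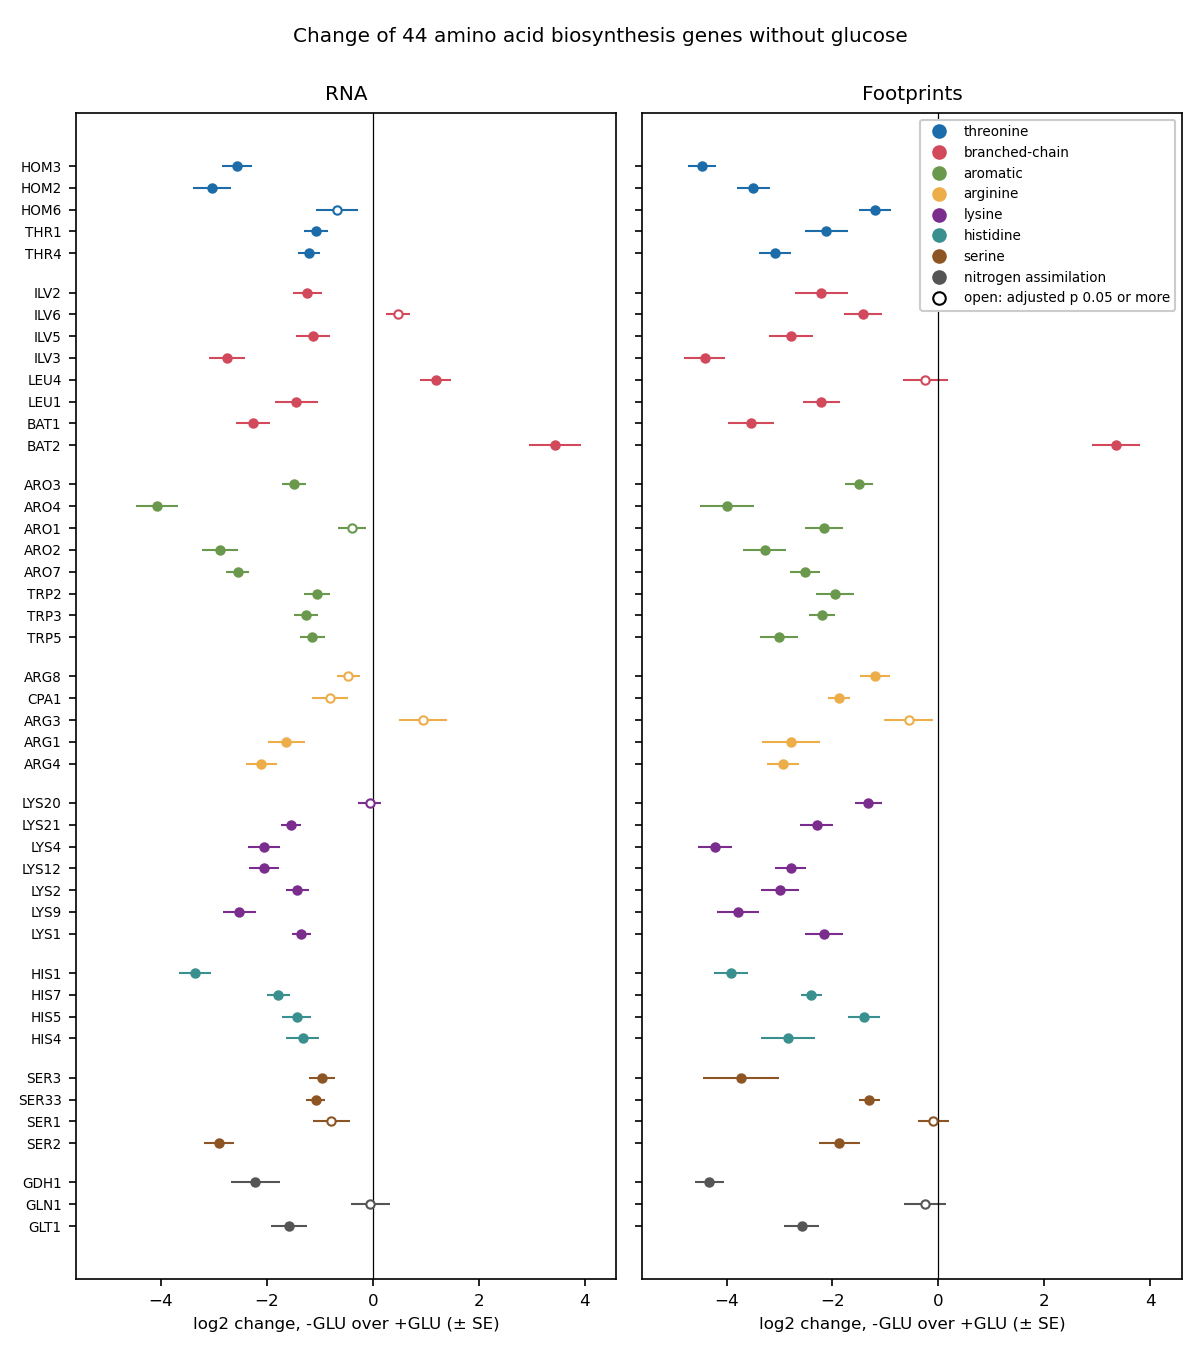
The horizontal axes give the log2 change of RNA (left) and footprints (right), -GLU over +GLU, from 3 libraries per state, and each row is 1 of 44 genes, coloured by pathway. Points are the fitted change, bars its SE, and open points have an adjusted p of 0.05 or more. Most points lie left of 0, farther left in footprints, with BAT2 far to the right in both at 3.44 and 3.35.

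In threonine synthesis, all 5 footprint values fell and 4 of 5 RNA values fell. Footprints of HOM3 (YER052C), the aspartate kinase at the entry of the pathway, fell more than those of any other of the 45 genes. They stood at 21.6, 17.4 and 16.6 CPM in -GLU, against 321, 445 and 475 CPM in +GLU, a log2 change of -4.47 ± 0.27 SE, adjusted p = 2.4e-05. These CPM values, and those that follow for the cycloheximide libraries, are scaled by the TMM factors of their fit. HOM3 RNA was at 42.4, 43.7 and 24.7 CPM in -GLU, against 266, 183 and 207 CPM in +GLU (log2 change -2.57 ± 0.28 SE, adjusted p = 9.41e-05). No -GLU library reached a +GLU library in either assay. HOM2 (YDR158W), aspartate semialdehyde dehydrogenase, had the largest RNA fall of the pathway, to 121, 134 and 189 CPM in -GLU, against 815, 1218 and 1624 CPM in +GLU (log2 change -3.04 ± 0.36 SE, adjusted p = 0.000141). Its footprints also fell (-3.49 ± 0.31). THR4 (YCR053W), threonine synthase, the last step, had 138, 167 and 146 CPM of RNA in -GLU, against 336, 386 and 322 CPM in +GLU, and 125, 129 and 72.8 CPM of footprints in -GLU, against 829, 918 and 1030.1 CPM in +GLU. Its log2 changes were -1.21 ± 0.21 in RNA and -3.08 ± 0.30 in footprints. THR1, homoserine kinase, changed by -1.08 in RNA and -2.12 in footprints. HOM6, homoserine dehydrogenase, was not called in RNA (-0.68, adjusted p = 0.161) and fell in footprints by 1.20. Without -GLU RNA replicate 3, the -GLU library where its RNA was highest, HOM6 RNA changed by -1.12 and passed the test (adjusted p = 0.018). With cellulose-selected RNA only, which leaves 1 +GLU library, HOM6 RNA changed by 0.06.

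The branched-chain genes held the largest share of the set's footprint counts and moved in both directions. They held 0.80%, 0.84% and 0.84% of footprint counts in -GLU, against 1.67%, 2.39% and 2.27% in +GLU. Among the enzymes shared by isoleucine and valine synthesis, ILV3 (YJR016C), dihydroxyacid dehydratase, fell most, to 152, 109 and 79.5 footprint CPM in -GLU, against 1746, 2797 and 2718 CPM in +GLU (log2 change -4.41 ± 0.39 SE, adjusted p = 7.34e-05). Its RNA fell by 2.75. ILV2, the catalytic subunit of acetolactate synthase, fell in RNA (-1.24) and in footprints (-2.21). Its regulatory subunit ILV6 (YCL009C) did not follow in RNA, with 406, 359.9 and 353 CPM in -GLU, against 239.6, 246 and 322 CPM in +GLU (log2 change 0.47 ± 0.23 SE, adjusted p = 0.0991), values that were not called although the groups did not overlap. With total counts in place of TMM, ILV6 RNA passed the test as higher (log2 change 0.63, adjusted p = 0.0456). ILV6 footprints nevertheless fell, to 356, 308 and 168 CPM in -GLU, against 514, 824 and 882 CPM in +GLU (log2 change -1.42 ± 0.36 SE, adjusted p = 0.0095). ILV5, the reductoisomerase, fell in RNA (-1.13) and in footprints (-2.79). Its RNA call (adjusted p = 0.0134) was lost without -GLU replicate 2 or +GLU replicate 3 (adjusted p = 0.0586 and 0.0581).

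In the leucine branch, LEU4 (YNL104C), α-isopropylmalate synthase, was 1 of the 2 genes whose RNA rose. Its RNA was at 1400.5, 1666 and 1780.1 CPM in -GLU, against 640.0, 709 and 777 CPM in +GLU (log2 change 1.19 ± 0.29 SE, adjusted p = 0.00667), with no overlap. With cellulose-selected RNA only, the LEU4 change was as large (1.37) but was not called (adjusted p = 0.082). Its footprints were not called (-0.25 ± 0.43, adjusted p = 0.633), with 1379, 1454 and 515 CPM in -GLU, against 960.2, 1543 and 1472 CPM in +GLU, and -GLU replicate 3 far below the other libraries. The direction of that footprint value depended on scaling and became 0.18 with total counts. LEU4 shared 2.56% of its 28-nt windows with its paralog LEU9, so part of its counts could belong to the other gene. LEU1, isopropylmalate isomerase, fell in RNA (-1.45) and in footprints (-2.21). Its RNA call (adjusted p = 0.0122) was lost without -GLU replicate 1 or 2 (adjusted p = 0.0653 and 0.0936).

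The branched-chain aminotransferases moved in opposite directions. BAT2 (YJR148W), the cytosolic enzyme, rose in RNA to 1256, 2130.1 and 3767 CPM in -GLU, against 152, 272 and 237 CPM in +GLU (log2 change 3.44 ± 0.49 SE, adjusted p = 0.000357). Its footprints also rose, to 1124, 2016 and 3146 CPM in -GLU, against 147, 239.7 and 229.6 CPM in +GLU (log2 change 3.35 ± 0.45 SE, adjusted p = 0.000478). BAT1 (YHR208W), the mitochondrial enzyme, fell in RNA to 369, 314 and 322 CPM in -GLU, against 1179, 1875 and 1770.5 CPM in +GLU (log2 change -2.26 ± 0.31 SE, adjusted p = 0.000316). BAT1 footprints fell to 411, 351 and 163 CPM in -GLU, against 2783, 4136 and 3813 CPM in +GLU (log2 change -3.53 ± 0.44 SE, adjusted p = 0.000316). The -GLU libraries spread widely for BAT2, with replicate 3 highest in both assays, and the states did not overlap for either gene. Within each library, the log2 ratio of BAT1 to BAT2 footprint counts was -1.45, -2.52 and -4.26 in -GLU, against 4.24, 4.11 and 4.05 in +GLU, a difference of -6.88. In RNA it was -1.77, -2.76 and -3.55 in -GLU, against 2.96, 2.78 and 2.90 in +GLU, a difference of -5.57. BAT2 thus had more counts than BAT1 in each -GLU library and fewer in each +GLU library, in both assays, and the coding sequences of BAT1 and BAT2 are of like length (1182 and 1131 nt). A two-sided exact permutation test gave p = 0.1 for each, the smallest that 3 against 3 libraries allow, and 0.114 adjusted over the 8 ratios tested, which cover 4 isozyme pairs in 2 assays.

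**Figure D2:**
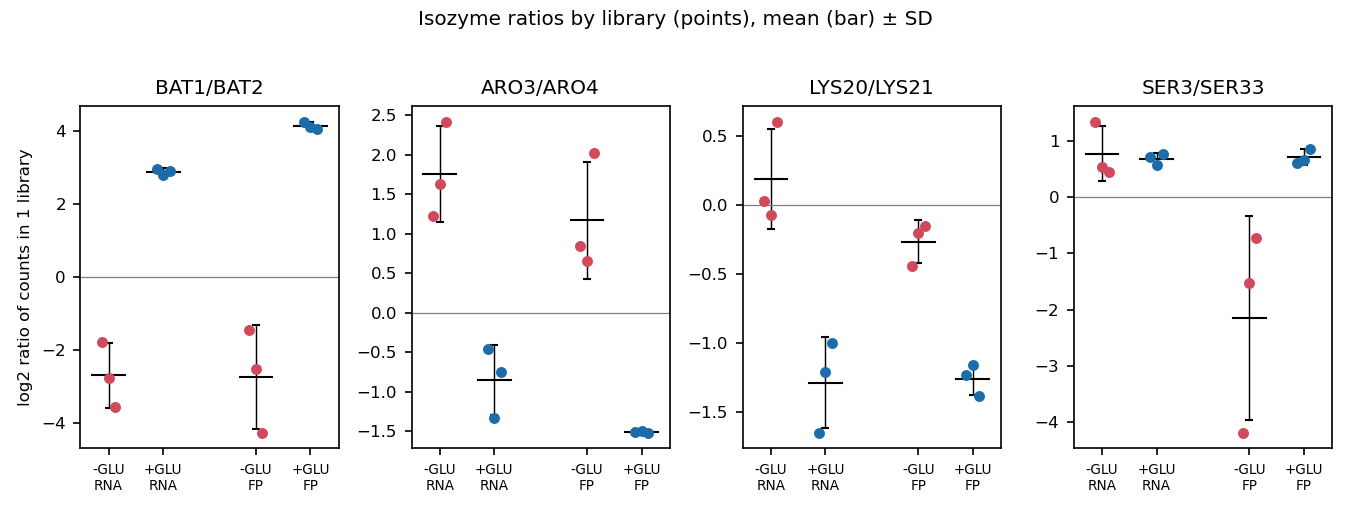
Each point is the log2 ratio of the counts of 2 isozyme genes within 1 library (vertical axis), for -GLU and +GLU libraries of RNA and footprints (FP), with the mean as a bar and the SD as whiskers (n = 3). The states do not overlap in 7 of the 8 comparisons, the exception being SER3/SER33 in RNA, and the BAT1/BAT2 ratio changes sign between the states in both assays.

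Footprints of all 8 aromatic genes fell, and RNA of 7 of 8. The first step, DAHP synthase, has isozymes inhibited by different end products, and these moved by different amounts. ARO4 (YBR249C), the tyrosine-inhibited isozyme, had the largest RNA change of the 45 genes, with 66.0, 56.5 and 33.3 CPM in -GLU, against 574, 1109 and 949 CPM in +GLU (log2 change -4.08 ± 0.39 SE, adjusted p = 5.26e-05). Its footprints were at 112, 125 and 36.9 CPM in -GLU, against 1074, 1574 and 1740.5 CPM in +GLU (log2 change -3.998 ± 0.51 SE, adjusted p = 0.000382). ARO3 (YDR035W), the phenylalanine-inhibited isozyme, had 154, 174 and 178 CPM of RNA in -GLU, against 418, 439 and 563 CPM in +GLU, and 202, 197 and 149.9 CPM of footprints in -GLU, against 378, 558 and 608 CPM in +GLU, with a log2 change of -1.49 in both assays. The log2 ratio of ARO3 to ARO4 was therefore above 0 in each -GLU library and below 0 in each +GLU library. In footprints it was 0.84, 0.66 and 2.02 in -GLU, against -1.51, -1.50 and -1.52 in +GLU (difference 2.68). In RNA it was 1.22, 1.63 and 2.42 in -GLU, against -0.46, -1.34 and -0.75 in +GLU (difference 2.60), and the exact p was 0.1 in both. ARO2 (YGL148W), chorismate synthase, had 88.0, 77.7 and 59.4 CPM of RNA in -GLU, against 323, 693 and 648 CPM in +GLU (log2 change -2.88 ± 0.34 SE, adjusted p = 0.000143). ARO7, chorismate mutase at the branch to phenylalanine and tyrosine, fell in RNA (-2.55) and in footprints (-2.52). ARO1, which joins the consecutive activities of the shikimate pathway in a single polypeptide, was not called in RNA (-0.39, adjusted p = 0.235) and fell by 2.16 in footprints. In the tryptophan branch, TRP2, TRP3 and TRP5 changed in RNA by -1.06, -1.26 and -1.14, and in footprints by -1.95, -2.20 and -3.01.

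Among the arginine genes RNA of 3 of 6 fell, with the smallest median RNA change of the 8 pathways (-0.94), and footprints of 5 of 6 fell. The late enzymes ARG1 (argininosuccinate synthetase) and ARG4 (argininosuccinate lyase) fell in RNA (-1.63 and -2.11) and in footprints (-2.78 and -2.94). With cellulose-selected RNA only, ARG1 RNA changed by -0.93 and was not called (adjusted p = 0.101). CPA1, a subunit of carbamoyl phosphate synthase, fell in footprints (-1.88) and was not called in RNA (-0.81, adjusted p = 0.0618). ARG8, acetylornithine aminotransferase, fell in footprints by 1.20 and was not called in RNA (-0.47, adjusted p = 0.0893). ARG3 (YJL088W), ornithine carbamoyltransferase, was not called in either assay: its RNA was at 166, 139 and 38.9 CPM in -GLU, against 55.5, 50.5 and 74.0 CPM in +GLU, and its footprints at 95.2, 70.1 and 23.0 CPM in -GLU, against 66.6, 99.6 and 114 CPM in +GLU. In both assays -GLU replicate 3 lay below every other library and the states overlapped. Without that library, ARG3 RNA changed by 1.37 and passed the test (adjusted p = 0.00067), and CPA1 RNA changed by -1.27 (adjusted p = 0.000919).

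All 7 lysine genes fell in footprints, and in -GLU replicate 3 all 7 lay below both other -GLU libraries, by a median log2 difference of -0.58. Of all 45 genes, 26 lay below both there and 14 above both, with a median difference of -0.37. Branched-chain and aromatic genes had 6 of 8 each below both, with medians of -0.97 and -0.84. In the other lists set beside these genes below, 10 of 21 biosynthesis genes, 9 of 14 regulators and 6 of 11 breakdown genes lay below both. The share over all genes was not counted, so this is not shown to be particular to any pathway. LYS4 (YDR234W), homoaconitase, a mitochondrial iron-sulfur enzyme, had 28.5, 26.3 and 18.3 CPM of footprints in -GLU, against 329, 548 and 491 CPM in +GLU (log2 change -4.22 ± 0.31 SE, adjusted p = 4.04e-05). Its RNA was at 116, 103 and 65.3 CPM in -GLU, against 285, 485 and 421 CPM in +GLU (log2 change -2.06 ± 0.30 SE, adjusted p = 0.000413). The states did not overlap in either assay. The homocitrate synthases at the entry differed in RNA. LYS20 (YDL182W) RNA was at 69.4, 55.6 and 80.0 CPM in -GLU, against 58.9, 72.7 and 83.6 CPM in +GLU (log2 change -0.06 ± 0.22 SE, adjusted p = 0.828). LYS21 (YDL131W) RNA fell to 67.8, 58.3 and 52.6 CPM in -GLU, against 185, 169 and 168 CPM in +GLU (log2 change -1.55 ± 0.19 SE, adjusted p = 0.000183). In footprints LYS20 was at 74.3, 59.4 and 57.9 CPM in -GLU, against 113, 195 and 173 CPM in +GLU (-1.32 ± 0.25), and LYS21 at 101, 68.3 and 64.3 CPM in -GLU, against 265, 436 and 452 CPM in +GLU (-2.30 ± 0.31). These near-identical genes share 48.6% (LYS20) and 47.2% (LYS21) of their 28-nt windows, so how their reads were divided is uncertain. As counted, the log2 ratio of LYS20 to LYS21 in RNA was 0.03, -0.07 and 0.60 in -GLU, against -1.65, -1.21 and -1.002 in +GLU (difference 1.48), and in footprints -0.44, -0.20 and -0.15 in -GLU, against -1.23, -1.16 and -1.39 in +GLU (difference 0.997), each with an exact p of 0.1. Of the later steps, LYS12 (homoisocitrate dehydrogenase), LYS2 (aminoadipate reductase), LYS9 (saccharopine reductase) and LYS1 (saccharopine dehydrogenase) changed by -2.05, -1.43, -2.52 and -1.35 in RNA, and by -2.79, -2.99, -3.78 and -2.16 in footprints.

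The 4 histidine genes fell in both assays. HIS1 (YER055C), the ATP phosphoribosyltransferase of the feedback-inhibited first step, fell most, with 75.4, 81.0 and 71.7 CPM of RNA in -GLU, against 508, 919 and 914 CPM in +GLU (log2 change -3.36 ± 0.31 SE, adjusted p = 4.82e-05). Its footprints were at 25.5, 17.1 and 35.9 CPM in -GLU, against 365, 370.5 and 451 CPM in +GLU (log2 change -3.92 ± 0.32 SE, adjusted p = 5.63e-05). All -GLU libraries lay far below all +GLU libraries in both assays. HIS7 (imidazole glycerol phosphate synthase), HIS5 (histidinol-phosphate aminotransferase) and the multifunctional HIS4 fell in RNA (-1.79, -1.44 and -1.33) and in footprints (-2.40, -1.40 and -2.85).

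In serine synthesis RNA and footprints of 3 of 4 genes fell. SER3 and SER33 encode isozymes of 3-phosphoglycerate dehydrogenase, the first step out of glycolysis. The coding sequences of SER3 and SER33 share 5.35% of their 28-nt windows, so part of their reads could be divided either way. SER3 (YER081W) footprints were at 3.72, 19.6 and 35.5 CPM in -GLU, against 190.5, 273 and 292 CPM in +GLU (log2 change -3.73 ± 0.72 SE, adjusted p = 0.00276). SER3 RNA was at 186, 114 and 114 CPM in -GLU, against 269, 256 and 278 CPM in +GLU (log2 change -0.95 ± 0.25 SE, adjusted p = 0.00822). SER33 (YIL074C) had 73.2, 78.5 and 83.4 CPM of RNA in -GLU, against 164, 172 and 162 CPM in +GLU, and 69.1, 56.9 and 58.6 CPM of footprints in -GLU, against 125, 171 and 160.0 CPM in +GLU. Its log2 changes were -1.08 ± 0.18 in RNA and -1.30 ± 0.20 in footprints. Both isozymes fell in both assays. The log2 ratio of SER3 to SER33 in footprints was -4.19, -1.53 and -0.72 in -GLU, against 0.61, 0.67 and 0.87 in +GLU (difference -2.86, exact p = 0.1). In RNA it was 1.34, 0.54 and 0.45 in -GLU, against 0.72, 0.58 and 0.78 in +GLU, states that overlapped (difference 0.09, exact p = 1). The footprint difference was -1.84 without -GLU replicate 1, the library with the lowest SER3 value. SER2 (YGR208W), phosphoserine phosphatase, had 34.9, 27.5 and 28.5 CPM of RNA in -GLU, against 151, 278 and 257 CPM in +GLU (log2 change -2.91 ± 0.28 SE, adjusted p = 5.26e-05), and its footprints changed by -1.87 ± 0.39. SER1, phosphoserine aminotransferase, was not called in RNA (-0.78, adjusted p = 0.0753) or footprints (-0.10, adjusted p = 0.783). In both assays SER1 was highest, among -GLU libraries, in the library numbered 3. Without that library SER1 passed the test in RNA (-1.24, adjusted p = 0.00165) and in footprints (-0.45, adjusted p = 0.0375).

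The enzymes that bring ammonium into glutamate and glutamine did not move together. GDH1 (YOR375C), the NADP-dependent glutamate dehydrogenase used in glucose-grown cells, had 119, 124 and 137 CPM of footprints in -GLU, against 2281, 2872 and 2471 CPM in +GLU (log2 change -4.33 ± 0.27 SE, adjusted p = 2.6e-05). Its RNA was at 290.1, 412 and 451 CPM in -GLU, against 783, 2726 and 1857 CPM in +GLU (log2 change -2.22 ± 0.47 SE, adjusted p = 0.00298), and the lowest +GLU value was that of the cellulose-selected library. With cellulose-selected RNA only, the GDH1 change in RNA was -0.99 and was not called (adjusted p = 0.0959). GLT1, glutamate synthase, fell in RNA (-1.59) and in footprints (-2.58), and its RNA change was -0.80 with cellulose-selected RNA only (adjusted p = 0.0891). GLN1 (YPR035W), glutamine synthetase, was not called, with 522, 920.0 and 1418 CPM of footprints in -GLU, against 848, 1216 and 1343 CPM in +GLU (-0.25, adjusted p = 0.597). The -GLU values of GLN1 ran both below and above all +GLU values.

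Translational efficiency was called lower for 13 of the 45 genes. The efficiency change, tested as the interaction of assay and glucose state over 12 libraries, was below 0 for 39 of 45 genes, with a median log2 change of -0.92 beside 0.13 over all 5509 genes tested. The values below 0 include BAT2, whose footprints rose, and LEU4, ARG3 and GLN1, whose footprints were not called. The test was passed as lower by the 13 genes and as higher by 0, where 4.48% of all genes passed as lower and 9.24% as higher. At an unadjusted p under 0.05 the count was 19 lower and 1 higher, and the share of all genes at that threshold was not counted. DESeq2 called 16 lower and 0 higher, with 1070 genes called over the whole table, against 756 with edgeR. Among the 13 were HOM3 and THR4 of the threonine pathway, ILV3, ILV5 and ILV6 of the branched-chain pathway, ARO1 and TRP5, LYS2, LYS4 and LYS20, SER3, and GDH1. The largest were SER3 (-2.72 ± 0.75 SE, adjusted p = 0.0319), LYS4 (-2.10 ± 0.43 SE, adjusted p = 0.00952), GDH1 (-2.05 ± 0.54 SE, adjusted p = 0.0284), HOM3 (-1.85 ± 0.38 SE, adjusted p = 0.00956), ILV6 (-1.84 ± 0.43 SE, adjusted p = 0.0173) and THR4 (-1.82 ± 0.35 SE, adjusted p = 0.00747), all from edgeR's quasi-likelihood test. No histidine gene was called (HIS4 -1.46, HIS1 -0.50, HIS7 -0.56, HIS5 0.10). BAT2 and ARO4, which had the largest RNA changes, had efficiency changes of -0.03 and 0.13. For SER2 and SER1 the values were above 0 (1.09 and 0.75) and were not called (adjusted p = 0.146 and 0.308). Of the 13 calls, THR4, LYS4 and HOM3 passed the test in every fit that left out 1 library. The number of calls fell to 3 without +GLU footprint replicate 2, to 5 without +GLU footprint replicate 3 or +GLU RNA replicate 3, to 7 without -GLU footprint replicate 2 and to 8 without -GLU RNA replicate 2. It was 15 without both -GLU libraries numbered 3. The median efficiency change of the 45 genes ran from -1.16 to -0.75 over the fits that left out 1 library. With cellulose-selected RNA only, which leaves 1 +GLU RNA library, that median was -1.40.

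**Figure D3:**
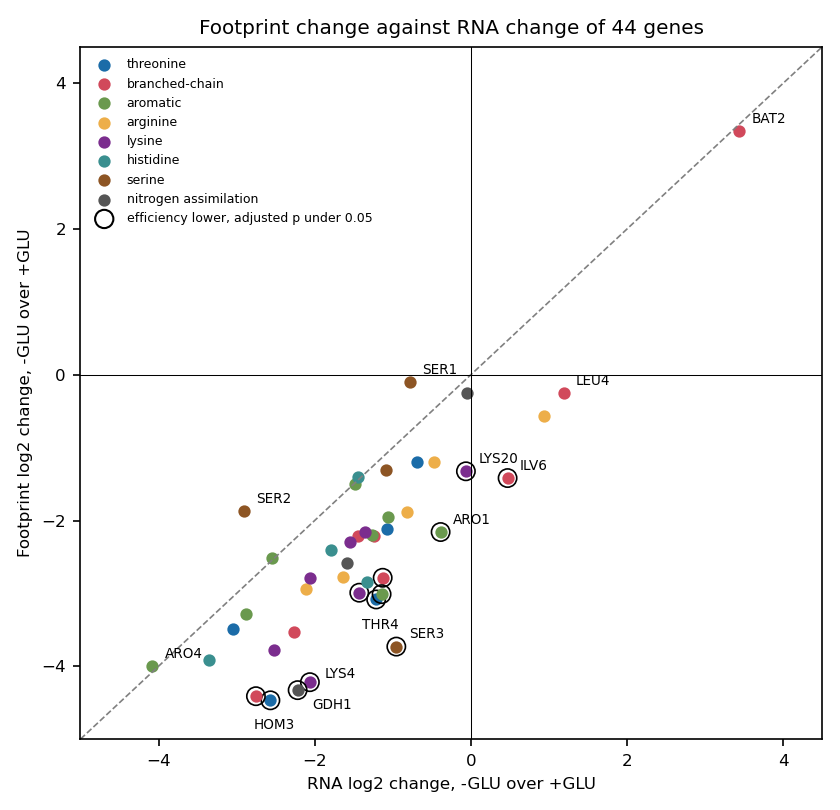
Each point is 1 of 44 genes, with its RNA log2 change on the horizontal axis and its footprint log2 change on the vertical axis (-GLU over +GLU), coloured by pathway. The dashed line marks equal changes, and rings mark genes whose efficiency was lower at an adjusted p under 0.05. Most points lie below the line, while BAT2 and ARO4 lie near it and SER1 and SER2 above it.

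The combined calls sort the genes into 5 kinds. RNA and footprints both fell for 34 genes, 10 of which were also called lower in efficiency. Over all genes tested, 30.2% fell in RNA, 31% in footprints and 4.48% in efficiency, each taken alone. The share of all genes in each combination was not counted, so these counts describe the set only. Footprints fell with RNA not called for 6 genes, namely ILV6, LYS20 and ARO1, whose efficiency was called lower, and HOM6, ARG8 and CPA1, whose efficiency was not. Neither assay was called for ARG3, SER1 and GLN1. RNA rose with footprints not called for LEU4, and both rose for BAT2.

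Levels were compared between genes per length, as the authors' RPKM, reads scaled by gene length and library depth. With glucose, all 45 genes lay above the 70th percentile of footprint RPKM over all genes, with a median percentile of 88.0, whereas without glucose the median was 60.9 and the range 18.3 to 98.1. The order also changed. In -GLU the highest footprint levels were those of BAT2 (2215 ± 1152 RPKM, SD, n = 3), LEU1 (1028 ± 136) and GLN1 (1024 ± 520). In +GLU they were those of ILV5 (3792 ± 806 RPKM, SD, n = 3), LEU1 (3488 ± 570) and BAT1 (2636 ± 408). Neighbours in the order rarely differed beyond their spread: the values of 43 of 44 neighbouring pairs overlapped in -GLU footprints and those of 41 of 44 in +GLU footprints. The lowest footprint levels in -GLU were those of LYS4 and HOM3. LYS4 stood at 13.7 ± 2.48 RPKM in -GLU, against 189 ± 39.3 RPKM in +GLU, and HOM3 at 13.7 ± 1.56 RPKM in -GLU, against 226 ± 34.5 RPKM in +GLU.

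Within each state, the rank of footprint RPKM over RNA RPKM among all genes can be read without a comparison of scale between states. The median percentile of the 45 genes was 58.2 in -GLU and 88.9 in +GLU. In -GLU, 8 genes ranked above the 75th percentile and 9 below the 25th, against 32 and 0 in +GLU. Genes of the branched-chain, threonine and lysine pathways reached the highest ranks in +GLU, led by ILV6 and THR4, which ranked at 58.2 and 57.0 in -GLU, against 98.8 and 98.5 in +GLU. SER3 ranked at 1.65 in -GLU and 72.4 in +GLU, and LYS4 at 5.59 in -GLU and 81.9 in +GLU. All these ranks come from group means. SER3 varied widely between -GLU libraries, with 3.01, 16.1 and 31.1 RPKM of footprints and 148, 89.1 and 79.3 RPKM of RNA. HIS7, HIS1 and CPA1 ranked low in both states, at 7.46, 14.4 and 4.24 in -GLU and at 25.9, 35.7 and 27.3 in +GLU. ARO4 kept a high rank in both, 92.7 in -GLU and 92.9 in +GLU.

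**Figure D4:**
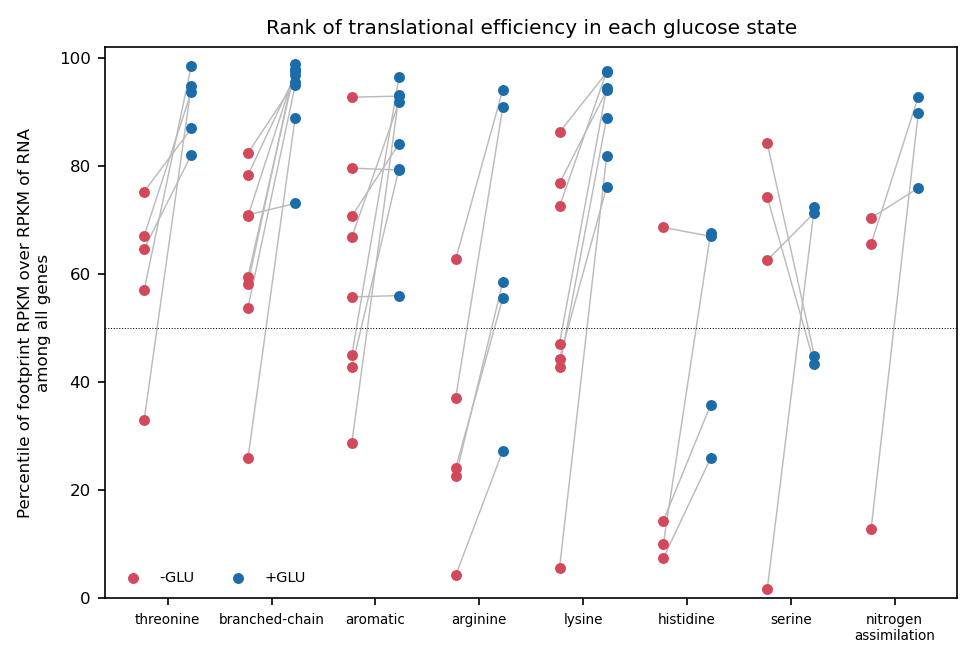
The vertical axis gives the percentile of footprint RPKM over RNA RPKM among all genes, in -GLU (red) and +GLU (blue), with 1 point for each of 44 genes and state from group means (3 libraries each) and grey lines joining the same gene. Pathways run along the horizontal axis. Most genes rank lower in -GLU, and the medians over all 45 genes are 58.2 in -GLU and 88.9 in +GLU.

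Without cycloheximide, footprints of most of the 45 genes were also lower without glucose, with a smaller median change than with the drug. These libraries had no replicates, so no test was made, and intervals are exact 95% intervals that cover counting error only. After a fast harvest, 29 genes were lower by 2-fold or more in -GLU than in +GLU, 3 were higher and 13 lay between, where 19.5% of 5335 genes were lower and 32% higher by that much. The median log2 ratio of CPM was -1.40, beside 0.32 over all genes, and with TMM factors it was -1.75, beside -0.02. With cycloheximide the median change of the 45 genes was -1.96 with total counts and -2.40 with TMM factors. ILV6 (-0.26), ARO3 (-0.29), ARG8 (-0.65), ARG1 (-0.63), LYS1 (-0.57) and HIS5 (-0.27) lay within 2-fold with either scaling, as did CPA1, given below. All of these were called lower with cycloheximide (-1.42, -1.49, -1.20, -2.78, -2.16, -1.40 and -1.88). SER2 went the other way, with -2.39 against -1.87 with cycloheximide. HOM3 had 32.9 CPM in -GLU, against 311.7 CPM in +GLU (log2 ratio -3.24, interval -3.42 to -3.07). SER3 had 7.93 CPM in -GLU, against 83.7 CPM in +GLU (-3.39, interval -3.77 to -3.05). LYS4 had 18.3 CPM in -GLU, against 217.5 CPM in +GLU (-3.57, interval -3.81 to -3.34), and GDH1 214.6 CPM in -GLU, against 1726 CPM in +GLU (-3.01, interval -3.08 to -2.94). These, with HIS1 (-3.26, interval -3.46 to -3.07) and ILV3 (-3.14, interval -3.22 to -3.06), were the lowest ratios of the set. BAT2 was again higher, at 2408 CPM in -GLU, against 248.2 CPM in +GLU (3.28, interval 3.24 to 3.32), while BAT1 was at 512.9 CPM in -GLU, against 1992 CPM in +GLU (-1.96, interval -2.002 to -1.91). LEU4, whose footprints were not called with cycloheximide, was at 1816 CPM in -GLU, against 701.7 CPM in +GLU (1.37, interval 1.34 to 1.40). ARG3 was at 116.3 CPM in -GLU, against 54.0 CPM in +GLU (1.11, interval 0.99 to 1.22), and its ratio was 0.76, under 2-fold, with TMM factors. CPA1, called lower with cycloheximide, was at 115.2 CPM in -GLU, against 94.0 CPM in +GLU (0.29, interval 0.19 to 0.40), and its ratio was -0.05 with TMM factors. In the -GLU library titled without fast harvest, LEU4 had 1679 CPM, BAT2 1921 CPM, HOM3 26.7 CPM and SER3 14.9 CPM. The series with and without the drug also differed in harvest and lysis, so the drug's part in any difference between them cannot be told apart. The labels of the libraries without cycloheximide still hold the treatment text that names it, and its absence rests on their titles and descriptions.

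**Figure D5:**
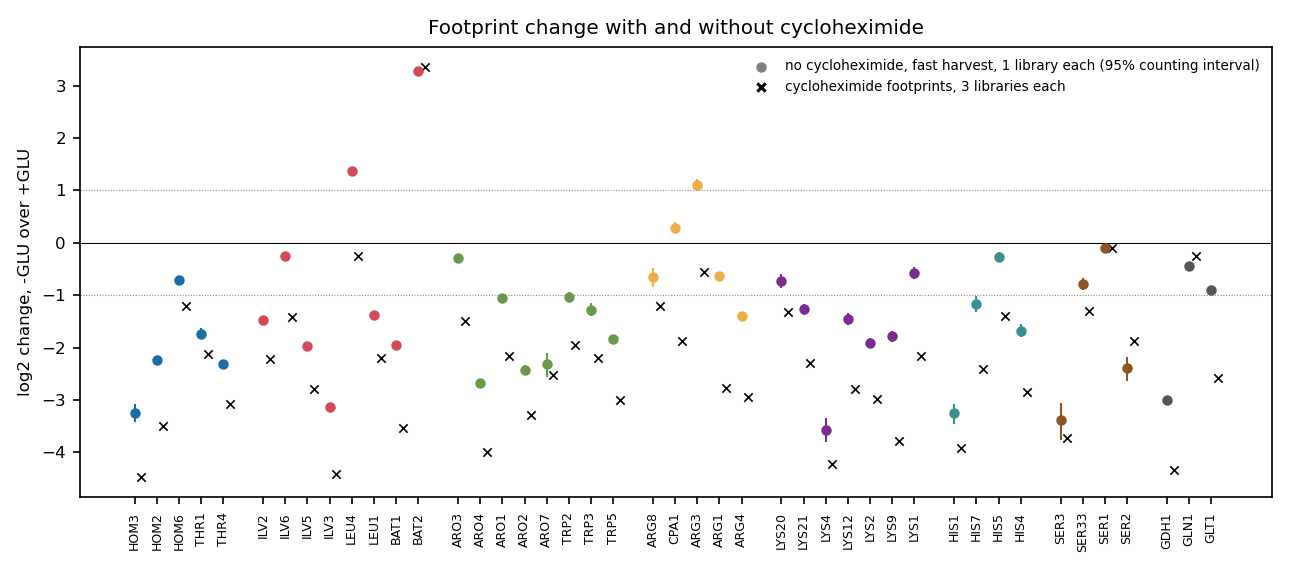
The vertical axis gives the log2 change of footprints, -GLU over +GLU, for 44 genes along the horizontal axis. Coloured points are the ratio of CPM without cycloheximide after a fast harvest (1 library per state, bars the 95% counting interval), crosses the fitted change with cycloheximide (3 libraries per state, TMM factors), and dotted lines mark 2-fold. LEU4, ARG3 and CPA1 lie above 0 without the drug and below 0 with it, and BAT2 is at 3.28 without it. Points and crosses differ in scaling. With TMM factors for the libraries without the drug too, LEU4 and ARG3 are at 1.03 and 0.76 there, and CPA1 at -0.05. With total counts, LEU4 is at 0.18 with the drug.

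Other genes of amino acid metabolism were set beside these. Of 24 further biosynthesis genes listed, 22 were tested in RNA, where 11 fell and 2 rose, and 21 in footprints, where 15 fell and 3 rose. HIS3 passed the filter in neither assay. TRP1 passed it in RNA only, at 1.95, 1.34 and 7.60 CPM in -GLU, against 0.514, 2.42 and 0.457 CPM in +GLU, and was not called. Without cycloheximide after a fast harvest, TRP1 had 28.4 CPM in -GLU and 9.29 CPM in +GLU, and HIS3 10.5 and 14.9 CPM. The reason for these low counts was not tested. Over all genes tested, 30.2% were lower and 30.4% higher in RNA, and 31% were lower and 33.8% higher in footprints. LEU9, the paralog of LEU4, fell in RNA (-3.12) and in footprints (-5.22), and GDH3, the paralog of GDH1, rose by 4.24 in RNA and 5.16 in footprints. GDH3 had 19.9, 39.5 and 28.4 CPM of footprints in -GLU, against 0.793, 0.828 and 0.739 CPM in +GLU. These +GLU values lay near the floor of 3 counts, 0.721, 0.346 and 0.461 CPM before TMM scaling, so the size of the footprint rise is uncertain. In efficiency, LEU9 was the 1 called lower (-2.05) and SHM2, cytosolic serine hydroxymethyltransferase, the 1 called higher (2.29). Of 11 genes of amino acid breakdown, 10 rose in RNA and 10 in footprints. The largest were GAD1 (4.31) and PUT1 (4.23) in RNA and GDH2 (6.20) and PUT1 (5.91) in footprints, which encode glutamate decarboxylase, proline oxidase and the NAD-dependent glutamate dehydrogenase. In efficiency 3 of them rose, led by ARO9, an aromatic aminotransferase (2.56), and GDH2 (2.02).

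Of 14 regulators of these pathways tested, RNA of 1 fell and of 6 rose, and footprints of 1 fell and of 3 rose, beside the 30.2% lower and 30.4% higher in RNA and the 31% lower and 33.8% higher in footprints over all genes. Their efficiency changes ran from -0.93, for GCN4, to 0.46. The largest called changes were PHO2 (1.48) and GAT1 (1.08) in RNA, and BAS1 (-1.67) and ARO80 (1.05) in footprints. GCN4 had 1102, 1236 and 1461 CPM of RNA in -GLU, against 1272, 945 and 1138 CPM in +GLU (log2 change 0.18 ± 0.30 SE, adjusted p = 0.63). Its footprints were at 65.4, 91.8 and 184 CPM in -GLU, against 128, 198 and 271 CPM in +GLU (log2 change -0.81 ± 0.43 SE, adjusted p = 0.136), and its efficiency change was -0.93 ± 0.53 SE, adjusted p = 0.25. None of these was called. Without -GLU replicate 3 GCN4 footprints passed the test as lower (-1.36, adjusted p = 0.0031), and so did its efficiency without both -GLU libraries numbered 3 (-1.37, adjusted p = 0.0271). The median log2 changes of the 25 genes with a Gcn4-type site and the 20 without were -1.35 and -1.36 in RNA, -2.78 and -2.26 in footprints, and -1.10 and -0.69 in efficiency, given as a description with no test.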

How the data were processed

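The authors deposited counts of reads per gene, as whole numbers, and RPKM values. The deposited columns of -GLU RNA replicates 1 and 2 fall under expected counts, because 1 entry in each is not whole. That gene was left out, so no rounding was needed, and 5703 of 5704 genes were analysed. The authors' RPKM values match the counts over a gene length that is 24 nt shorter than the coding sequence in 12 libraries and 2 nt longer in 3. Those 3 were -GLU footprint replicate 3, -GLU RNA replicate 3 and +GLU RNA replicate 1. For aligner, genome build and strand setting, the sources used here name none. Footprints of about 28 nt and fragmented poly(A) RNA were sequenced after poly(A) tailing and circularisation, per the labels' protocols. The labels' protocols mention removal of rRNA except in the 3 -GLU RNA libraries and +GLU RNA replicate 3.

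Libraries were grouped by title. Tests used the quasi-likelihood F test of edgeR 4.0.16 under R 4.3.3 (TMM factors, filterByExpr with a minimum count of 10, Benjamini-Hochberg adjustment over all genes at 0.05), separately for RNA and footprints and as the interaction of both for efficiency. All 45 genes passed the filters. The SE is the log2 change divided by the square root of F. Isozyme ratios used counts plus 0.5. The tests were checked on simulated counts. Of true log2 changes of 1 in size, 39% were called in RNA, 15% in footprints and 7% in efficiency. Of changes of 2 in size, 99%, 92% and 67% were called. False calls made up 3.5%, 2.73% and 5.13% of calls. A gene that was not called is therefore not shown to be unchanged. Replicate pairs differed by more than sampling noise (12 of 12, chi-square per degree of freedom 9.40 to 382.5). A floor of 3 counts stood at 0.0981 to 1.86 CPM, and intervals and floors cover counting error only, since reads carry no molecular identifiers. Alternatives were other scaling (RLE factors of DESeq2 or total counts), DESeq2 1.42.0, no filter and a replicate block. Each library was also left out, and a fit used cellulose-selected RNA only. The block was a term for the replicate number, and in efficiency a term for glucose state and replicate number together. RefSeq R64 gave names (5698 of 5703 identifiers), coding lengths and upstream sequence.

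The 45 genes and the other lists were chosen with earlier results of these data known. Per comparison, values per library were given for the 6 called genes with the largest changes, for called genes against the common direction and for isozyme pairs. Some other genes were given likewise after their values were seen (THR4 and ILV6 in RNA and footprints, ARG3 and GLN1). Of other lists GCN4 and at most the 2 largest called changes were named, and TRP1 and HIS3 after their low counts were seen. The values of 1 of the 45 genes are not reported here. Counts, medians and shares over the set include it, and the figures leave it out.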

Additional observations from a re-analysis of the deposited data

How the results depend on the processing

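Of the 45 genes, 21 of 36 RNA calls, 40 of 41 footprint calls and 2 of 13 efficiency calls held under every alternative run, and no called change reversed its direction. With cellulose-selected RNA only, which leaves 1 +GLU RNA library assumed to vary like the others, RNA of 20 genes was called lower and of 1 higher, the median RNA change was -0.99, and 1764 genes were called over the whole table in RNA, against 3343. Efficiency was then called lower for 3 genes and for 145 over the whole table, against 756. The cause was not tested. Leaving that alternative aside, 34 of 36 RNA calls held, the exceptions being ILV5 and LEU1, and in footprints only HOM6 was lost, with total counts (-0.75, adjusted p = 0.0631).

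Total counts in place of TMM moved the median of all genes to 0.15 in RNA, 0.55 in footprints and 0.36 in efficiency, and the median of the 45 genes in footprints to -1.96. In footprints, LEU4, SER1 and GLN1, none of them called, were then above 0 (0.18, 0.37 and 0.22). Leaving out each library in turn gave 32 to 37 genes lower and 2 to 3 higher in RNA, 40 to 41 lower and 1 higher in footprints, and 3 to 14 lower and 0 to 1 higher in efficiency. Over the whole table, efficiency calls ranged from 273, without +GLU footprint replicate 2, to 1034, without -GLU RNA replicate 3. They were under 504 also without +GLU footprint replicates 1 (493) or 3 (374), +GLU RNA replicates 2 (445) or 3 (357), or -GLU RNA replicate 2 (320). SER2 was the 1 gene called higher, without -GLU footprint replicate 1 (1.41, adjusted p = 0.0385). Without both -GLU libraries numbered 3, an alternative chosen after the data were seen, 15 genes were lower and 1, SER1, higher (0.86, adjusted p = 0.0417), and 1378 genes were called. Every isozyme difference with states apart kept its sign when a library was left out, with ranges of -7.53 to -6.12 for BAT1/BAT2 in footprints and -3.58 to -1.84 for SER3/SER33. The SER3/SER33 difference in RNA ran from -0.19 to 0.25.

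The replicate number is shared by the labels of all groups without a stated meaning, and same-numbered libraries of the 2 states did not deviate together (correlations -0.17 to 0.07). Within a state, RNA and footprint libraries of equal number did so in -GLU (0.63, 0.35 and 0.60) but hardly in +GLU (0.13, 0.20 and 0.097). With the replicate block, 36 genes were lower in RNA and 40 in footprints. In efficiency the block paired RNA and footprint libraries of equal number within a state. There 22 genes were lower, now with HIS4 (-1.31, adjusted p = 0.0275) and LEU4 (-1.47, adjusted p = 0.0365), and 1431 were called over the whole table. The lowest count of any of the 45 genes in a library was 19, above the floor of 3 counts.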
